A study of Homo sapiens with 6 samples.

Results

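The genes described here form the negative feedback and the core of JAK-STAT signalling: the SOCS family members SOCS1, SOCS2, SOCS3 and CISH, the kinases PIM1, PIM2 and PIM3, the transcription factor STAT3, and the Janus kinases JAK1 and JAK2. They were taken by name, and every probe set annotated to exactly 1 of these symbols was followed, which gave 10 of 19775 genes and 29 probe sets. RNA came from Caco-2 cells, a human colorectal adenocarcinoma line that forms an enterocyte-like monolayer, set for 1, 3, 6, 24 or 48 h above THP-1 cells, and from Caco-2 cells at 0 h of coculture. All Caco-2 cells had grown for 14 days on a porous membrane, and the THP-1 cells, a human monocytic leukaemia line, had been treated for 4 days in 12-well plates with PMA, a phorbol ester that makes them macrophage-like. Transcripts were measured as MAS5 signal on Affymetrix arrays, 1 array for each time, so all values have n = 1, and no p-value can be given. No Caco-2 array kept without THP-1 cells for the same hours was analysed here, so coculture and time on the plate cannot be told apart.

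Cytokines that bind type I and type II receptors activate Janus kinases on the receptor tails, the kinases phosphorylate STAT proteins, and STAT dimers enter the nucleus and switch on genes. Among these genes are the SOCS genes, whose proteins bind the receptors or kinases and shut the signal down, and the PIM genes, which encode serine/threonine kinases that are active as soon as they are made and promote survival and protein synthesis. In intestinal epithelium this pathway, mainly through STAT3, is known for its part in wound repair downstream of interleukin-6 and interleukin-22, and SOCS3 for limiting it.

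Judged by the probe set of highest mean log2 signal, PIM3 was the single member at least 2-fold higher than at 0 h. It was so at each of the 5 coculture times. In such probe sets STAT3, JAK1, SOCS3, CISH, PIM1 and PIM2 each reached at least 1.5-fold at some time without reaching 2-fold. SOCS2 stayed within 1.31-fold. Other probe sets of JAK1, STAT3 and CISH were 7.79-fold, 3.41-fold and 2.65-fold higher at 6 h. SOCS1 and SOCS3 gave opposite directions in their probe sets, and JAK2 was never above the floor. The floor is a signal of 16.2, the 50th percentile of all values, under which signals were not ordered. A gene was called higher or lower when the probe set with its highest mean log2 signal differed at least 2-fold, and 9 of the 10 members had such a probe set above the floor on all 6 arrays. At each time 1 of these 9 was higher and 0 were lower. Of 14623 measured genes, those above the floor on any array, 1.9%, 3.1%, 4.23%, 3.95% and 3.82% were higher and 1.44%, 3.52%, 6.45%, 6.14% and 6.14% lower at 1, 3, 6, 24 and 48 h. With 9 members, 1 call is the smallest count above 0. All 5 comparisons share the single 0 h array. In a bulk sample, a lower share of some cells and less RNA per cell cannot be told apart.

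**Figure D1:**
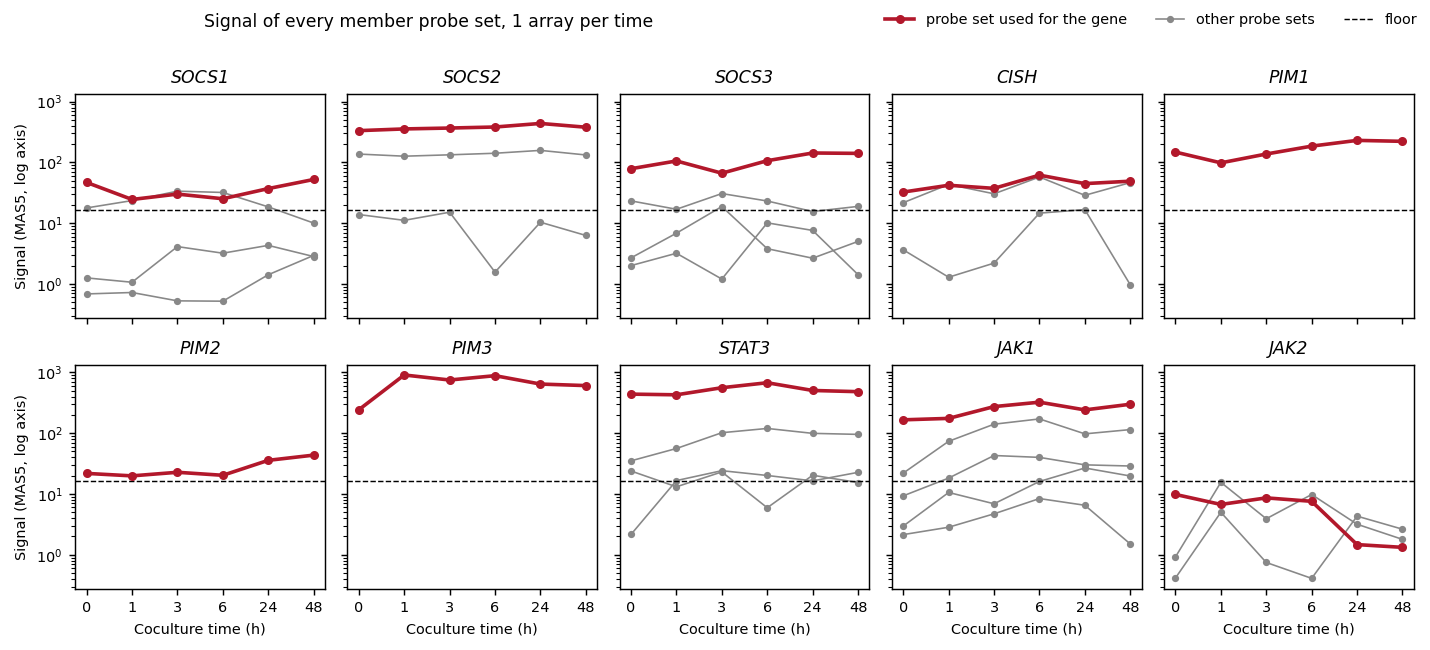
Signal of each of the 29 member probe sets (y axis, log scale) against coculture time (x axis, h), 1 panel per gene, with the probe set used for the gene in red, the others in grey and the floor of 16.2 dashed. PIM3 stands at 607 to 907 at the coculture times and at 243 at 0 h, while the 3 probe sets of JAK2 stay under the floor.

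PIM3 encodes a serine/threonine kinase that phosphorylates the death agonist BAD and promotes cap-dependent translation. Its only probe set had a signal of 243 at 0 h, and 907, 749.5, 883, 643 and 607 on the arrays of 1, 3, 6, 24 and 48 h. All 5 coculture arrays lay above the 0 h array, and the whole of the difference was present after the first hour. The fold over 0 h was 3.73, 3.09, 3.64, 2.65 and 2.50 at 1, 3, 6, 24 and 48 h. At 1 h, PIM3 ranked 46 of 14623 measured genes by log2 ratio, and at 48 h it ranked 229. Its log2 ratio of 1.90 at 1 h can be set beside 0.29, the robust SD of log2 ratios when 1 gene was read by different probe sets with signals of 128 to 256, over 1794 such pairs at 0 and 1 h. That SD leaves out the variation between cultures, and as a robust value it is little moved by pairs that differ widely. For 2 probe sets of JAK1, 1 of them with a signal of 22.0 at 0 h, the log2 ratios at 1 h differed by 1.66. Against the 1 h array the log2 ratio of PIM3 was -0.27, -0.038, -0.50 and -0.58 at 3, 6, 24 and 48 h, so its call rests on the 0 h array. The 0 h array also had the highest 3'/5' signal ratio of the ACTB controls, 51.2, whose part in the PIM3 values was not tested.

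The 250 bases before the RefSeq start of PIM3 (GRCh38.p14, chr22:49960522-49960771, plus strand) are shown because PIM3 was the member with the called difference, and those of CISH (GRCh38.p14, chr3:50611775-50612024, minus strand) because they hold the only STAT motifs found before a member. Capitals mark matches to the STAT motif TTCNNNGAA, searched on both strands.
PIM3: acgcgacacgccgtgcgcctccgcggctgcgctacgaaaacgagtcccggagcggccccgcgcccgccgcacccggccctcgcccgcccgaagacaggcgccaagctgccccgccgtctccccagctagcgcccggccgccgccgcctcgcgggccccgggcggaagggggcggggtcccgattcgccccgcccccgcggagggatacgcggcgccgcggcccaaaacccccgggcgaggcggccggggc
CISH: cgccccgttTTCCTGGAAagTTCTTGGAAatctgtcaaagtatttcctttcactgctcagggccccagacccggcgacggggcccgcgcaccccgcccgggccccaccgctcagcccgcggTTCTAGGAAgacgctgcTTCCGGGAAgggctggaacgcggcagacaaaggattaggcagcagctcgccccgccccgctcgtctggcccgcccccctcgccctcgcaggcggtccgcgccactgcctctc
Promoter windows of 9 of the 10 members were found in the RefSeq table, SOCS2 not among them. The window of CISH held 4 matches to TTCNNNGAA, which start 241, 230, 129 and 112 bases before the gene, in neighbouring pairs, and the windows of the other 8 members held 0. Among 35116 promoter windows of the same length, 6.57% held at least 1 match. The STAT motif with 1 more spacer base stood in 5.38% of all windows and in 0 of the 9. An NF-kB motif stood in 9.96% of all windows and in that of SOCS1 alone among the members, 67 bases before the start. The AP-1 motif TGANTCA (6.57% of all windows), the cyclic AMP response element TGACGTCA (1.65%) and the serum response motif known as the CArG box (1.16%) stood in 0 of the 9. None of these motifs overlapped another in the windows of the members. These matches are letters in a window of 250 bases and describe no binding.

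CISH, the family member that binds phosphorylated receptor tails and is a known STAT5 target, had low signals. The probe set used, 223377_x_at, read 32.5, 42.1, 37.4, 61.7, 44.8 and 49.1 at 0, 1, 3, 6, 24 and 48 h. All 5 coculture arrays were above 0 h, with the highest at 6 h. The folds over 0 h were 1.29, 1.15, 1.90, 1.38 and 1.51 at 1, 3, 6, 24 and 48 h. The other bright probe set of CISH, 221223_x_at, read 21.7 before coculture, then 43.4, 30.4, 57.5, 28.7 and 46.5 at 1, 3, 6, 24 and 48 h. It peaked at the same time, with a fold of 2.65 at 6 h, and its log2 ratio at 1 h was 0.997, just under 2-fold. The suffix _x_at marks probe sets with probes that may also match other transcripts. With the median over its probe sets in place of 1 probe set, CISH passed 2-fold at 6 and 48 h, with log2 ratios of 1.40 and 1.10. Probe set 223961_s_at was under the floor at 0, 6 and 48 h, so these values are those of 221223_x_at alone.

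SOCS3 encodes the inhibitor of signalling through gp130, the shared receptor chain of the interleukin-6 family. Its used probe set, 227697_at, read 78.7 at 0 h, and 106, 66.4, 107, 143 and 141 on the arrays of 1, 3, 6, 24 and 48 h. The late arrays were the highest and the 3 h array was below 0 h. The folds over 0 h were 1.34, 1.35, 1.81 and 1.79 at 1, 6, 24 and 48 h, and the 3 h signal was 1.19-fold lower. A dimmer probe set, 206360_s_at, did not follow it. It read 23.3, 16.9, 30.7, 23.2, 15.6 and 18.9 at 0, 1, 3, 6, 24 and 48 h. The log2 ratios of both at 24 h were 0.86 and -0.52, the second of them with the 24 h array at the floor. With the median over its probe sets the log2 ratio of SOCS3 at 24 h was -0.26. That value comes from 206360_s_at and probe sets at the floor, and 227697_at had no weight in it.

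SOCS1 encodes the inhibitor that acts directly on the kinase domain of Janus kinases, chiefly in interferon signalling. Its used probe set, 210001_s_at, read 46.8 before coculture, then 24.6, 30.1, 25.2, 37.1 and 52.4 at 1, 3, 6, 24 and 48 h. The arrays of 1 to 6 h were the lowest, lower than 0 h by 1.91-fold, 1.56-fold and 1.85-fold. Probe set 213337_s_at of the same gene read 17.8 at 0 h, and 23.5, 33.6, 32.02, 18.6 and 10.05 on the arrays of 1, 3, 6, 24 and 48 h. It ran the other way, with folds over 0 h of 1.89 at 3 h and 1.80 at 6 h. The other 2 probe sets of SOCS1 stayed under the floor, with a highest signal of 4.31, so no direction is given for SOCS1.

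SOCS2, which limits growth hormone signalling, varied least over the arrays among the 9 measured members. Its used probe set, 203373_at, had a signal of 333, 355, 367, 382, 437 and 379 at 0, 1, 3, 6, 24 and 48 h. The fold over 0 h was highest at 24 h, 1.31, a log2 ratio of 0.39. Probe set 203372_s_at read between 127 and 158, with its highest signal at 24 h as well.

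PIM1, the founding kinase of the family and a known STAT target, was lowest at 1 h. Its only probe set had a signal of 148 before coculture, then 98.3, 137, 185, 230.2 and 222 at 1, 3, 6, 24 and 48 h. Its log2 ratio to 0 h was -0.59 at the first of these times and 0.64 and 0.59 at the last ones. Relative to the 1 h array, the 24 h array was 2.34-fold and the 48 h array 2.26-fold higher. PIM2, the family member best known from lymphoid cells, had signals close to the floor. It read 21.8 at 0 h, and 19.8, 22.7, 20.3, 35.7 and 43.5 on the arrays of 1, 3, 6, 24 and 48 h. Both late arrays lay above the 4 earlier ones, and the fold over 0 h was 1.64 at 24 h, with a log2 ratio of 0.999 at 48 h, just under 2-fold. At signals of 16.2 to 32 the robust SD between probe sets of a gene was 0.49 on the log2 scale, beside 0.71 and 0.999 for PIM2. On these single arrays the 3 PIM genes differed in timing, PIM3 being high from 1 h while PIM1 was then at its lowest. PIM2 differed from 0 h by more than 1.5-fold at 24 and 48 h alone. The -0.59 of PIM1 stands beside a robust SD of 0.29 at signals of 128 to 256. With the floor at the 65th percentile the log2 ratios of PIM2 were 0 at 24 h and 0.21 at 48 h.

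**Figure D2:**
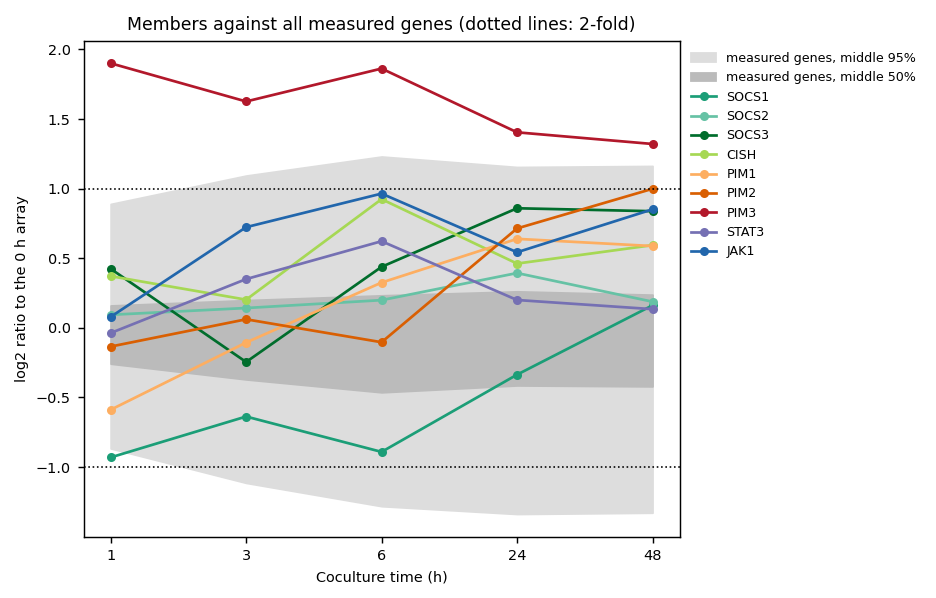
Log2 ratio to the 0 h array (y axis) at each coculture time (x axis, h) for the 9 members above the floor, over grey bands with the middle 50% and 95% of 14623 measured genes and dotted lines at 2-fold. PIM3 lies above the wide band at each time, with log2 ratios of 1.32 to 1.90.

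STAT3 transmits signals of the interleukin-6 family and is itself a known STAT3 target. The brightest probe set, 208991_at, read 439, 428, 559.6, 676, 504 and 482 at 0, 1, 3, 6, 24 and 48 h. The 6 h array was the highest, 1.54-fold over 0 h, and the 48 h array was 1.10-fold over it. Probe set 208992_s_at read 35.1 before coculture, then 56.0, 102, 119.6, 99.3 and 95.5 at 1, 3, 6, 24 and 48 h. Here each coculture array was above 0 h, with folds of 1.60, 2.90, 3.41, 2.83 and 2.72 at 1, 3, 6, 24 and 48 h. Of the remaining probe sets of STAT3, 225289_at was under the floor at 0 h and read 16.4 to 24.2 later, and 243213_at read between 5.93 and 23.9, with its highest signal at 0 h. STAT3 thus was highest at 6 h in both bright probe sets, with sizes that differed between them.

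JAK1, the kinase attached to gp130, to interferon receptors and to receptors of the common gamma chain, was higher than at 0 h in each probe set above the floor. The brightest, 201648_at, read 166 at 0 h, and 175, 274, 323, 242 and 299 on the arrays of 1, 3, 6, 24 and 48 h. Its fold over 0 h was 1.06, 1.65, 1.95, 1.46 and 1.80 at 1, 3, 6, 24 and 48 h, short of 2-fold throughout. Probe set 1552610_a_at read 22.0, 73.5, 141, 172, 97.5 and 115 at 0, 1, 3, 6, 24 and 48 h. These are folds of 3.34, 6.38, 7.79, 4.42 and 5.20 over 0 h. Probe set 1552611_a_at was under the floor at 0 h and read 18.2 to 42.9 afterwards, which makes it at least 2.64-fold higher at 3 h. With each array scaled to a common median, JAK1 passed 2-fold at 6 h also in the brightest probe set. JAK2, the kinase of the growth hormone, erythropoietin and interferon-gamma receptors, had signals of 0.409 to 15.5 over its 3 probe sets and 6 arrays, all under the floor, so it has no fold. A signal under the floor sets only a bound and does not show that the transcript was missing.

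**Figure D3:**
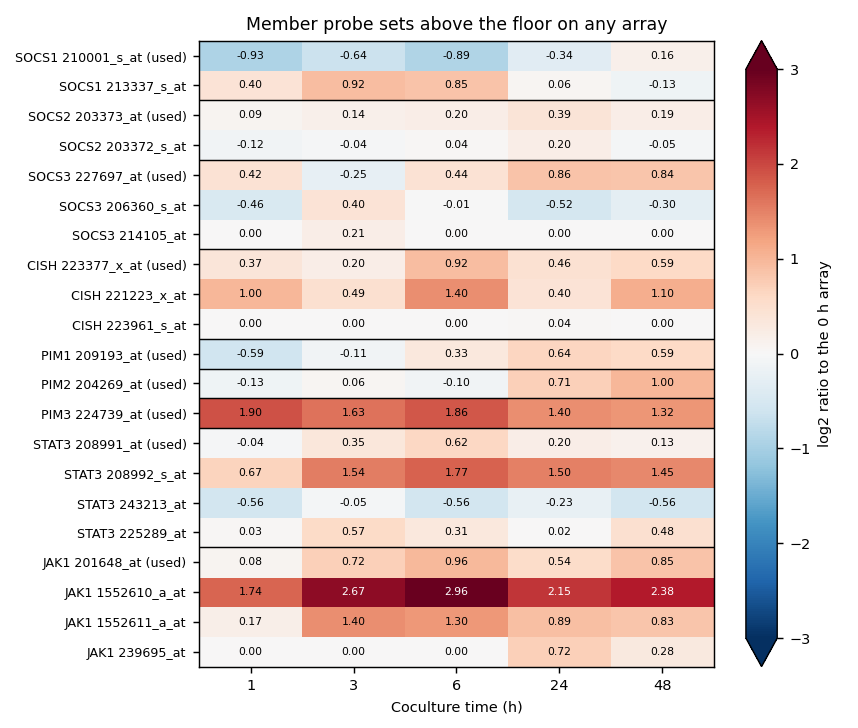
Log2 ratio to the 0 h array (colour and printed number) at each coculture time (columns, h) for the 21 member probe sets above the floor on any array (rows, grouped by gene; the one used for the gene is marked). PIM3, both bright probe sets of CISH and the JAK1 probe sets are positive at each time at which they are above the floor, while the SOCS1 and SOCS3 probe sets disagree in sign.

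Counted by probe set, 21 of the 29 were above the floor on any array, and 2, 4, 5, 3 and 4 of these 21 were at least 2-fold higher at 1, 3, 6, 24 and 48 h. Over all such probe sets with 1 symbol, 2.82%, 4.99%, 5.88%, 5.06% and 5.36% were higher at these times. At 6 h the 5 were those of PIM3, 221223_x_at of CISH, 208992_s_at of STAT3, and 1552610_a_at and 1552611_a_at of JAK1. Of the 21, 0 were at least 2-fold lower at any time, where the shares over all probe sets were 1.54%, 3.14%, 5.6%, 5.05% and 4.84%. Probe sets of 1 gene share a transcript and are not separate evidence. In 30 pairs of member and time at least 2 probe sets could be compared, and in 12 of them all moved the same way.

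In both JAK1 and STAT3 the second brightest probe set gave larger log2 ratios to 0 h than the brightest. For JAK1 the log2 ratio of 1552610_a_at exceeded that of 201648_at by 1.66, 1.95, 1.997, 1.60 and 1.53 at 1, 3, 6, 24 and 48 h. For STAT3 that of 208992_s_at exceeded that of 208991_at by 0.71, 1.19, 1.15, 1.30 and 1.31. IL6ST, the gene of gp130, showed a like spread, since its 5 probe sets above the floor at 6 h had log2 ratios between 0.38 and 2.91. The 3'/5' signal ratio of the ACTB controls, a measure of RNA integrity and labelling, was 51.2 before coculture, then 27.7, 22.9, 18.0, 27.9 and 37.0 at 1, 3, 6, 24 and 48 h. The ACTB ratio was thus highest on the array to which all others were compared and lowest at 6 h, where JAK1 and STAT3 were highest. The same ratio for GAPDH did not single out the 0 h array, with 4.69 at 0 h, and 3.81, 4.29, 3.54, 4.72 and 4.23 on the arrays of 1, 3, 6, 24 and 48 h. The part of either in these results was not tested. Where each probe set lies on its transcript is not given in the sources used here.

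**Figure D4:**
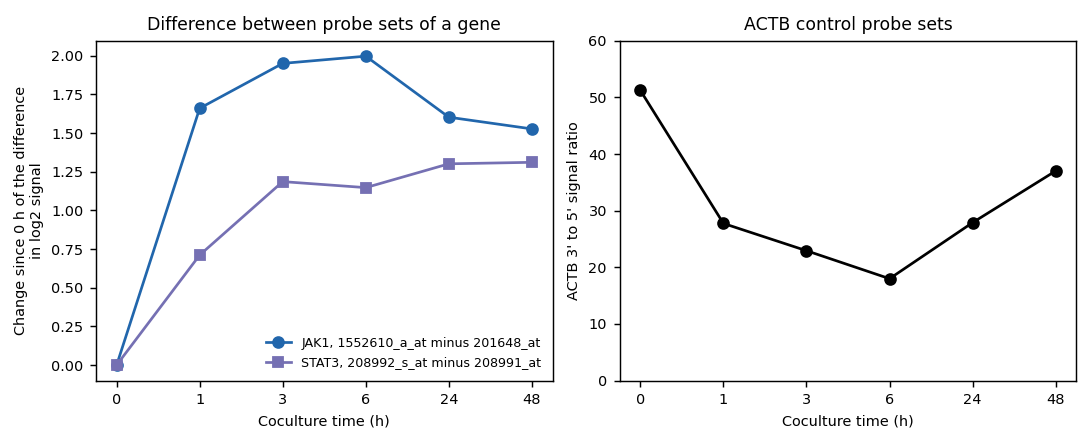
Left, change since 0 h of the log2 difference between 2 probe sets of JAK1 (circles) and of STAT3 (squares); right, 3' to 5' signal ratio of the ACTB control probe sets; x axes, coculture time (h), 1 array per time. Both differences are above 0 at each coculture time, and the ACTB ratio is lower at each of them (18.0 to 37.0) than at 0 h (51.2).

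With a size limit of 1.5-fold, more members were higher than lower at 3, 6, 24 and 48 h. At least 1.5-fold higher were 1 of 9 at 1 h (PIM3), 2 at 3 h (PIM3 and JAK1), 4 at 6 h (PIM3, JAK1, STAT3 and CISH), 4 at 24 h (PIM1, PIM2, PIM3 and SOCS3) and 6 at 48 h (PIM1, PIM2, PIM3, SOCS3, CISH and JAK1). Over all measured genes the shares were 6.53%, 9.55%, 11.3%, 12% and 11.2% at 1, 3, 6, 24 and 48 h. On the lower side of 1.5-fold stood 2 members at 1 h (SOCS1 and PIM1), 1 at 3 h and 1 at 6 h (SOCS1), and 0 later, beside 8.06%, 13.6%, 19.1%, 17.2% and 17.5% of all measured genes. SOCS1 stood there by its used probe set, while 213337_s_at was above 0 h at these 3 times. SOCS3 counted as higher at 24 and 48 h by its used probe set alone. Its probe set 206360_s_at had log2 ratios of -0.52, a bound, and -0.30 at these times. At 48 h, PIM1 and CISH barely passed the limit, at 1.503-fold and 1.509-fold. The median log2 ratio of the 9 members was 0.079, 0.14, 0.44, 0.54 and 0.59 at 1, 3, 6, 24 and 48 h, and that of all measured genes lay between -0.042 at 6 h and 0 at 1 and 24 h.

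By step between neighbouring arrays, 0 of 9 members moved 2-fold after 1 h in the probe sets used. At least 2-fold higher than on the preceding array were 1.35%, 1.01%, 2.13% and 0.964% of measured genes at 3, 6, 24 and 48 h, and lower were 1.31%, 1.35%, 2.41% and 1.38%. From 3 to 6 h, CISH and SOCS3 were higher by log2 ratios of 0.72 and 0.68, and from 6 to 24 h PIM2 by 0.82. Between 1 and 3 h, JAK1 was higher by 0.64 and SOCS3 lower, with a log2 ratio of -0.67. Against the 1 h array, 1 member passed 2-fold on the 24 h array, PIM1 (2.55% of measured genes), and 3 did on the 48 h array, PIM1, PIM2 and SOCS1 (2.98%). SOCS1 did so in 210001_s_at, while its probe set 213337_s_at read 23.5 at 1 h and 10.05, under the floor, at 48 h.

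The genes nearest in pattern were sought among 3360 genes above the floor on all 6 arrays that varied at least 2-fold, by Pearson's r of log2 signal over the 6 arrays, for members that varied as much and reached a signal of 100. With 6 points, such values describe these arrays, and 63, 44 and 35 genes had r above 0.9 with PIM3, PIM1 and SOCS3. Nearest to PIM3 were CHMP6 (r = 0.983), a subunit of the membrane-remodelling ESCRT-III complex, MAFF (0.981), a small basic leucine zipper factor, and FAM241A (0.976). MAFF had log2 ratios of 2.22, 2.20, 2.16, 1.87 and 1.40 at 1, 3, 6, 24 and 48 h. Nearest to PIM1 were OLR1 (0.989), a scavenger receptor, GRB7 (0.988), an adaptor of receptor tyrosine kinases, and CD44 (0.984), the hyaluronan receptor. Nearest to SOCS3 were RNF166 (0.996), MAD2L1 (0.970), a spindle checkpoint protein, and RBBP6 (0.959).

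In the probe sets used, most of the rest of the SOCS, JAK and STAT families stayed within 2-fold of 0 h. SOCS4, SOCS5, SOCS6 and SOCS7, relatives with less defined roles in cytokine signalling, were all above the floor and 0 of 4 passed 2-fold at any time. SOCS7 had the largest log2 ratio of these, -0.68 on the 3 h array, and its probe sets ran up to 0.53 there. Dimmer probe sets of SOCS4 and SOCS6 reached log2 ratios of 1.25 and 2.25 on the 6 and 48 h arrays, where the used ones had 0.02 and 0.02. Of JAK3, TYK2, STAT4, STAT5A, STAT5B and STAT6, STAT4 alone was called, at least 2.16-fold higher at 48 h with a signal of 35.0 and under the floor at 0 h. STAT6, which carries interleukin-4 signals, had log2 ratios of 0.69 and 0.64 on the 6 and 24 h arrays, but 0.06 and -0.37 in its other probe set. The -0.37 is a bound, with the 24 h array at the floor. STAT5B, a carrier of growth hormone signals, had -0.85 at 48 h in the probe set used and up to 0.72 in others. TYK2, a kinase of interferon receptors, had 0.55 at 6 h. JAK3 read 12.5 to 27.7 and STAT5A 14.6 to 31.5.

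**Figure D5:**
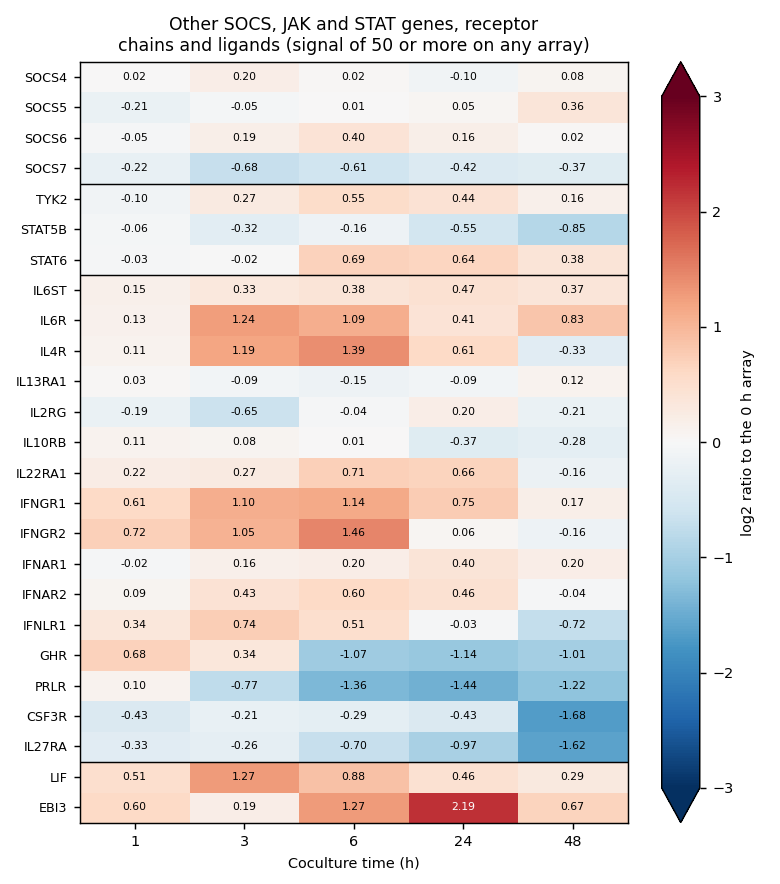
Log2 ratio to the 0 h array (colour and printed number) at each coculture time (columns, h) for other SOCS genes, JAK and STAT genes, receptor chains and ligands with a signal of 50 or more on any array (rows, lines between the 4 lists). IL6R, IL4R, IFNGR1 and IFNGR2 are past 2-fold at 3 and 6 h, and GHR and PRLR are at -1.01 or below from 6 h on.

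In the probe sets used, 4 of 25 measured receptor chains of the pathway were at least 2-fold higher at 3 h. The same 4 were at 6 h, against 3.1% and 4.23% of all measured genes. At 24 and 48 h, 0 were higher. IL6R, the interleukin-6 receptor, read 138 at 0 h, and 151, 327, 295, 184 and 246 on the arrays of 1, 3, 6, 24 and 48 h. It was 2.37-fold higher at 3 h, and 2 probe sets gave log2 ratios of 1.18 and 1.24. IFNGR2, a chain of the interferon-gamma receptor, read 353, 581, 734, 970.0, 368 and 317 at 0, 1, 3, 6, 24 and 48 h, 2.75-fold higher at 6 h. IFNGR1, the other chain of that receptor, named here after its values were seen, was 2.20-fold higher at 6 h. IL4R, the interleukin-4 receptor, reached 2.63-fold on the same array. IL6ST was 1.30-fold higher at 6 h in its brightest probe set. OSMR, the oncostatin M receptor, reached a signal of 18.1 at most.

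Lower by at least 2-fold were 2 of the 25 chains at 6 and at 24 h and 4 at 48 h, against 6.45%, 6.14% and 6.14% of all measured genes. PRLR, the prolactin receptor, read 105 before coculture, then 112, 61.4, 40.8, 38.7 and 45.0 at 1, 3, 6, 24 and 48 h, 2.71-fold lower at 24 h. Its other probe sets reached a log2 ratio of 0.03 at that time. GHR, the growth hormone receptor, named after its values were seen, was 2.20-fold lower at 24 h. CSF3R and IL27RA, receptors of granulocyte colony-stimulating factor and interleukin-27, were 3.21-fold and 3.07-fold lower at 48 h, CSF3R with a signal of 16.4 just above the floor. Another probe set of IL27RA, under the floor at 0 h, had a log2 ratio of at least 0.04. The median log2 ratio of the chains was 0.20 at 6 h and -0.13 at 48 h.

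Of 25 ligands of the pathway with a probe set, 12 stayed under the floor on all arrays and 13 were measured. LIF, a cytokine that signals through gp130, read 47.8 at 0 h, and 68.0, 115, 87.7, 65.8 and 58.3 on the arrays of 1, 3, 6, 24 and 48 h, and was 2.41-fold higher at 3 h. IL6 exceeded the floor at 1 h alone, with a signal of 22.9. EBI3, a subunit of interleukin-27, had signals of 209 and 395 on the 6 and 24 h arrays, against 86.5 at 0 h, and was 2.41-fold and 4.56-fold higher. IL15, named after its values were seen, was 2.59-fold higher at 48 h with a signal of 43.2. Its other probe set, under the floor at 0 h, had a log2 ratio of at least 0.11. IFNG and IFNB1, likewise named afterwards, were under the floor on all arrays, with highest signals of 9.51 and 3.93. RNA of the THP-1 cells was not analysed here.

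Of 13 other measured inhibitors of the pathway, such as PIAS proteins and phosphatases, 0 were at least 2-fold higher at any time, against 9.03% of all measured genes (12.9% were lower at any time). USP18, which restrains interferon receptors, was 2.18-fold lower at 48 h. Of 24 measured genes known as STAT3 targets, 4, 5, 6, 2 and 0 were at least 2-fold higher and 0, 0, 0, 3 and 3 lower at 1, 3, 6, 24 and 48 h. Beside these stand 1.9%, 3.1%, 4.23%, 3.95% and 3.82% of all measured genes higher and 1.44%, 3.52%, 6.45%, 6.14% and 6.14% lower. The higher ones include FOS, 5.87-fold at 6 h, JUNB, 6.19-fold at 1 h, and ICAM1, 4.66-fold at 6 h, which other pathways also induce. The 3 probe sets of ICAM1 ran from 0.40 to 2.22 on the log2 scale at that time. The lower ones at 48 h were the fibrinogen chains FGA, FGB and FGG, with log2 ratios of -2.81, -2.71 and -2.30. Another probe set of FGA had -0.11 at each coculture time, only a bound because it was at the floor on those arrays. The median log2 ratio of the list was 0.23, 0.31, 0.34, 0.43 and 0.22.

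The arrays were alike in scale, with 2% trimmed means of 93.8 and median signals of 15.3 to 16.7. All 10 epithelial marker genes with a probe set, among them CDH1 and EPCAM, were above the floor on each array, with summed signals of 15626 to 19950. Of these, 8 stayed within 2-fold of 0 h at all times, as did 78.1% of all measured genes. KRT20 and CDX2 did not, with largest absolute log2 ratios of 2.02 and 1.81. Of 14 macrophage markers with a probe set, 6 to 9 were above the floor, with summed signals of 562 to 901, and the leukocyte genes PTPRC and SPI1 were under it on all arrays. The macrophage sum had its highest value, 901, on the 0 h array, where PIM3 was lowest, and its lowest value, 562, on the 3 h array. A single marker, AIF1, carried most of that difference, with signals of 111 on the 3 h and 360.0 on the 0 h array. The 12 measured macrophage markers had a median log2 ratio of -0.046 on the 3 h array and of 0 on the later and earlier ones, and their part in the results was not tested.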

How the data were processed

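Affymetrix arrays with 54675 probe sets were hybridised with RNA from Caco-2 cells, 4 µg per sample per the labels' protocols, 1 array at each of 0, 1, 3, 6, 24 and 48 h. The deposited values are signal intensity per probe set on a linear scale, made with MAS5 per the submitters' processing notes. Its version, scaling target and detection thresholds were not given in the sources used here. All 6 deposited columns were used. Each had the same 2% trimmed mean, so no further scaling was applied.

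A probe set was named when the platform annotation gave it exactly 1 symbol (41097, against 1801 with several and 11777 with none), and 41037 matched a RefSeq gene ID. Values under the floor, a signal of 16.2, were set to it before log2. Each gene was represented by its brightest probe set, judged by mean log2 signal before flooring. Ratios against a floored value are bounds. With 1 array per time there is no test, and genes were called by size, at least 2-fold. The scripts were tested on simulated data.

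Members and the 9 pathway lists (152 entries) were chosen with earlier results of these data known. From each list up to 6 genes past 2-fold with a signal of 50 or more were named by largest log2 ratio, plus the measured SOCS, JAK and STAT genes, IL6ST, IL6R, OSMR, LIF and IL6. Alternatives covered normalization, the floor, a pseudocount, the choice of probe set, the size limit and the 1 h array as baseline. Promoter sequences came from RefSeq (GRCh38.p14). Python 3.11.15, numpy 2.4.6, pandas 2.3.3 and matplotlib 3.10.9 were used.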

Additional observations from a re-analysis of the deposited data

How the results depend on the processing

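Of 98 counts of members recomputed under alternatives, 81 stayed within 1.5 times the reported count and 17 did not. Each reported count was 1 for higher and 0 for lower, so a count stayed only if it was identical. Many of the 81 set 0 beside 0 and say little about how firm the results are. Those 17 were as follows. With a limit of 1.5-fold, 2, 4, 4 and 6 members were higher at 3, 6, 24 and 48 h, and 2, 1 and 1 were lower at 1, 3 and 6 h. With a limit of 3-fold, 0 were higher at 24 and 48 h. With the 1 h array as baseline, 0 were higher at 3 and 6 h and 3 at 48 h (PIM1, PIM2 and, in its used probe set alone, SOCS1). On that baseline the log2 ratio of PIM3 turned to -0.27, -0.038, -0.50 and -0.58 at 3, 6, 24 and 48 h. With the median over the probe sets of a gene, 2 were higher at 3 h, 3 at 6 h and 2 at 48 h. With arrays scaled to a common median, 2 were higher at 6 h and 2 at 48 h. With the 1 h baseline the count at 24 h stayed at 1, but the gene was PIM1 in place of PIM3. Of the members' log2 ratios, 50 of 50 moved by less than the robust SD for probe sets at that signal under quantile normalization. Under the common median 50 of 50 did, against 33 of 50 under the median over probe sets and 24 of 40 with the 1 h baseline. These 50 include JAK2, whose ratios stayed 0 at the floor in both normalizations. The common median shifts all ratios of an array above the floor alike, so its 50 of 50 shows only that this shift was small. The median over probe sets gave SOCS1 0.20 at 1 h and SOCS3 -0.15 at 48 h. Both values come from a dimmer probe set and others at the floor, without the probe set used. With the floor at the 65th percentile, 46 of 50 stayed within that SD, and the log2 ratio of PIM2 became 0 at 24 h and 0.21 at 48 h. Without probe sets ending in _x_at or _s_at, SOCS1 and CISH could not be measured. No paired analysis was possible because the labels give 1 array per time and no replicate numbers, and no array could be left out of a group of 1. Over all genes, probe sets with signals of 16.2 to 64, the range of PIM2, CISH and SOCS1, had robust SDs of 0.49 and 0.43 on the log2 scale, wider than at higher signals.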

Other observations

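Among 12 measured genes for substrates and partners of PIM kinases, 2 were at least 2-fold higher and 3 lower at 6 h, against 4.23% and 6.45% of all measured genes. CXCR4, a chemokine receptor that PIM1 phosphorylates, had a signal of 38.8 at 0 h, and 13.8, 97.6, 235, 136 and 110 on the arrays of 1, 3, 6, 24 and 48 h. It was 6.05-fold higher at 6 h in the probe set used, and 0.67 on the log2 scale in the lowest of 3 probe sets. MYC, a transcription factor that PIM kinases stabilise, was 2.88-fold higher at 6 h. Lower were BAD, a death agonist that PIM kinases inactivate, 2.15-fold at 6 h, EIF4EBP1, a repressor of cap-dependent translation, 2.24-fold at 48 h, and CDC25C, a phosphatase of the G2/M transition, 2.86-fold at 24 h.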
